A study of Mus musculus with 9 samples.

Results

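The 9 cytokine genes described here were followed in primary articular chondrocytes of mice, which are the cells of joint cartilage: Il6, Il11 and Lif of the interleukin-6 family, Il1a, Il1b, Il33 and the antagonist Il1rn of the interleukin-1 family, Il15, and Tnf. They were chosen by symbol, and all 9 were found among the 55450 genes listed. Only 3 of the 9 (Il11, Lif and Il1rn) reached 1 FPKM (a fragment count scaled by transcript length and by library depth) in at least 3 of the 9 libraries, the filter for testing, which 12441 genes passed. Another 3 (Il6, Il15 and Il33) were listed above 0 but below that filter, and the remaining 3 (Il1a, Il1b and Tnf) were listed at 0 in every library.

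RNA was sequenced in 3 groups of 3 libraries. The vehicle group received buffer and then DMSO. The bleomycin group received the DNA-breaking drug bleomycin for 24 h at 50 µg/mL and then DMSO. The third group received the same bleomycin and then ST045849, an inhibitor of O-GlcNAc transferase (the enzyme that adds single N-acetylglucosamine residues to proteins inside the cell), at 20 µM. The last phase ran for 5 days in each group, with medium renewed every 48 h, 10% serum and 3% oxygen, and all 3 groups had hyaluronidase at 4 U/mL for 4 h beforehand. Cells given ST045849 without bleomycin were not analysed here, so the inhibitor is read on top of bleomycin alone. Whether replicates were different animals or cultures is not in the labels, so p-values measure only the spread between these samples, which may be technical. The series asks how blocking O-GlcNAcylation bears on senescence of these cells.

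Interleukin-6 family cytokines signal through gp130, encoded by Il6st, together with other receptor chains, and act mainly through JAK kinases and STAT3. Interleukin-1α and -1β bind the receptor encoded by Il1r1 together with Il1rap, and the product of Il1rn occupies that receptor without signalling. Interleukin-33 is a nuclear protein that acts on the receptor encoded by Il1rl1 once released. Senescent cells often secrete inflammatory proteins, with interleukin-6, interleukin-1 and tumour necrosis factor among the usual examples. In cartilage, interleukin-1 and tumour necrosis factor are known to drive matrix-degrading proteases.

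The 250 bases before the transcription start are shown for the members whose windows hold the letters of AP-1 or NF-kB sites, 2 kinds of sites known from cytokine genes, and that had values above 0. Sequences are from RefSeq on GRCm38.p6, read 5′ to 3′ on the strand of the gene. Capitals mark matches on either strand to the AP-1 letters TGANTCA, to NF-kB, and to C/EBP (TTGCNNAA). The windows lie at chr11:4257318-4257567 on the plus strand for Lif, chr5:30012864-30013113 on the plus strand for Il6, chr7:4778142-4778391 on the minus strand for the second listed start of Il11, and chr2:24336610-24336859 on the plus strand for the first listed start of Il1rn.
Lif: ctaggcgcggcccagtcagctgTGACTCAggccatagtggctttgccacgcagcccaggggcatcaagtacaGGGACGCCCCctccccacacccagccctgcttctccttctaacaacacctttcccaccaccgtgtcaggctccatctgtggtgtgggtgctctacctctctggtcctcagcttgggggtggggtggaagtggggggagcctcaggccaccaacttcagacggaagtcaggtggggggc
Il6: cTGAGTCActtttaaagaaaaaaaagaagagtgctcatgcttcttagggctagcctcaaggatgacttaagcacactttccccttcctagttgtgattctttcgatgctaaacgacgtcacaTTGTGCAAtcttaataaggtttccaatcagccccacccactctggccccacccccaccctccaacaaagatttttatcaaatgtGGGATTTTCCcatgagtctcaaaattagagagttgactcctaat
Il11: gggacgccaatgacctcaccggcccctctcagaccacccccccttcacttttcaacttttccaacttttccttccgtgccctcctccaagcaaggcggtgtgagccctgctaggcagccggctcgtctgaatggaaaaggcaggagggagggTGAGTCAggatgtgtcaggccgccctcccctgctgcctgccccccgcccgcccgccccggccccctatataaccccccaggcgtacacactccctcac
Il1rn: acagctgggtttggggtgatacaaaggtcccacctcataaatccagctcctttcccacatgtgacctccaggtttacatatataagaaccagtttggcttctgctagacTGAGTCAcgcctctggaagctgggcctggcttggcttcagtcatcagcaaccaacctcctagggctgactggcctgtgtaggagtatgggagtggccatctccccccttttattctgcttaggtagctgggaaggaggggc
Of the 9 members, 8 matched the table, with 12 starts between them, and Il15 did not. The AP-1 letters stood in 5 of the 12 windows, against 6.7% of all 32851 promoters of the same length. These windows belonged to 5 of the 8 members (the 4 shown and Il1a), and members with more starts had more windows to match. NF-kB letters stood in 2 of the 12 windows (Lif and Il6), against 7.3% of all promoters. The STAT letters TTCNNNGAA stood in 0 of the 12 windows, against 7% of all promoters. The Lif NF-kB match fits the NF-kB letters on either strand, though its own letters differ between the strands, and is 1 place. These matches describe the letters and show no binding.

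Lif, the leukaemia inhibitory factor, was the member that rose with bleomycin. Its gene lies at chromosome 11, 4257557 to 4272514, on the plus strand (GRCm38, GENCODE vM21, as for all gene positions here). Lif stood at 0.244, 0.171 and 0.147 FPKM in the vehicle libraries, at 0.741, 1.09 and 1.36 in the bleomycin libraries, and at 0.624, 0.927 and 1.16 with ST045849. All 6 bleomycin-treated libraries lay above all 3 vehicle libraries, while the 2 treated groups overlapped. Group means were 0.187 ± 0.0505, 1.06 ± 0.311 and 0.904 ± 0.269 FPKM (SD, n = 3 each), and the ratio of the first 2 means was 5.68. As log2(FPKM + 1), a scale that shrinks changes of genes this low, Lif rose by 0.79 ± 0.17 (SE, 95% interval 0.41 to 1.17, limma, adjusted p = 0.0275). In this comparison 4.88% of all tested genes were called at an adjusted p under 0.05, 523 higher (4.2%) and 84 lower, and scaling by median of ratios gave 351 higher and 141 lower. Lif reached 1 FPKM in exactly 3 libraries, all of them treated with bleomycin, so it entered the test only through the groups in which it was high. The call was lost when any 1 vehicle library was left out, or bleomycin library 2 or 3, with adjusted p of up to 0.116, and was also lost with no filter (0.0529), under quantile normalization (0.162), and with gene length removed, alone (0.0504) or with pairing (0.0604). RNA of whole cultures does not tell more cells with the transcript from more transcript per cell.

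Lif was not shown to differ between the 2 bleomycin-treated groups. The library with ST045849 held 0.843, 0.851 and 0.852 times the Lif level of the bleomycin library with the same replicate number, so all 3 pairs were slightly lower. The difference of the groups was -0.12 ± 0.17 on the log2(FPKM + 1) scale (95% interval -0.49 to 0.26, limma, adjusted p = 0.677). The overlap of the treated groups was shared by most genes, since 25.2% of those tested lay apart. The replicate numbers of these 2 groups paired the libraries in the data, and the paired fit gave an adjusted p of 0.612. Against vehicle, Lif with ST045849 was 0.67 ± 0.17 higher (limma, adjusted p = 0.0339), in a comparison where 9.85% of tested genes were called. That last call held in 8 of 14 alternatives. It was lost with no filter (limma, adjusted p = 0.0696), under quantile normalization (0.122), with gene length removed (0.0973), and in fits of the 2 groups alone (0.0597), with a replicate block (0.132) and with both block and length removal (0.236). Leaving out 1 library ended it for vehicle library 2 or 3, bleomycin library 2 or ST045849 library 2 or 3 (adjusted p of up to 0.13). Replicate numbers of vehicle and ST045849 did not pair in the data, so the fits with a block say little about that call. Both comparisons against vehicle use the same 3 vehicle libraries.

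**Figure D1:**
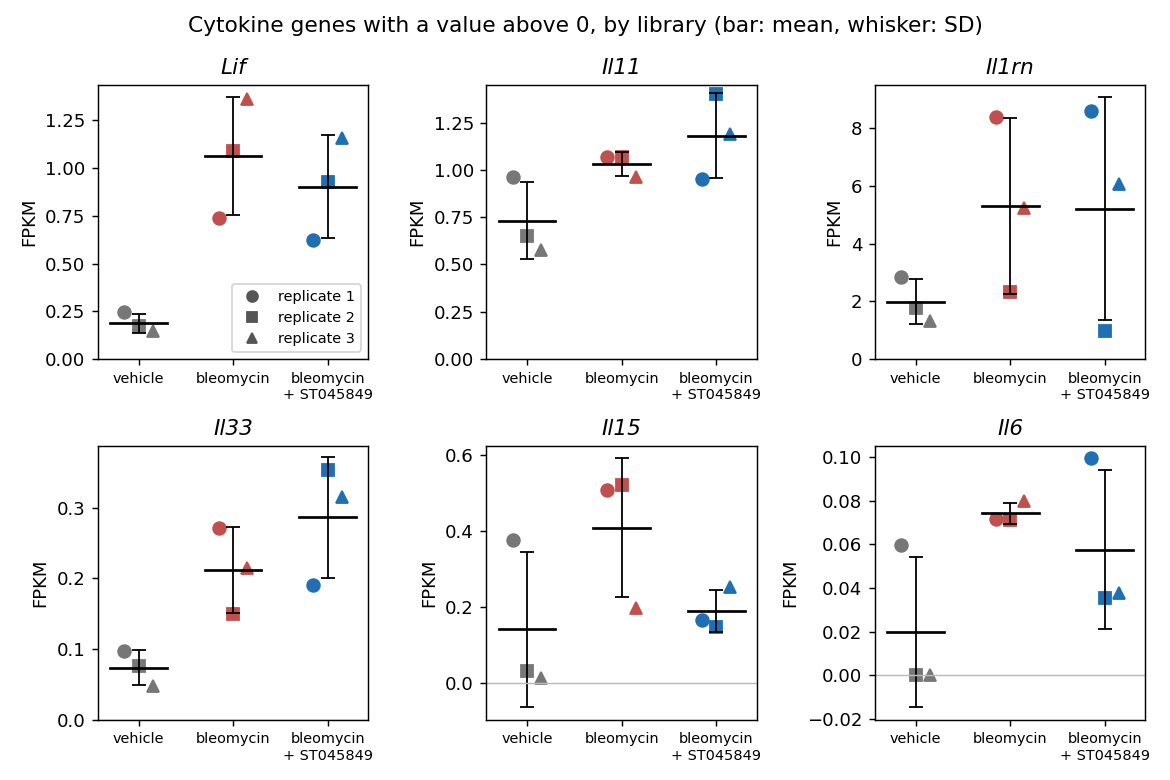
FPKM of the 6 cytokine genes with any value above 0, by treatment group; each symbol is 1 library, shaped by replicate number, the bar is the group mean and the whisker the SD of 3 libraries. For Lif, the 6 treated libraries sit between 0.624 and 1.36 FPKM, above the vehicle libraries at 0.147 to 0.244; each panel has its own axis, and Il6 does not exceed 0.0995 FPKM.

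Il11, a gp130 cytokine known for roles in fibrosis and in bone and cartilage cells, lies at chromosome 7, 4772373 to 4782859, on the minus strand. Il11 measured 0.962, 0.651 and 0.579 FPKM in the vehicle libraries, 1.07, 1.07 and 0.96 with bleomycin, and 0.95, 1.4 and 1.19 with ST045849. Vehicle library 1 reached into the range of both treated groups, so no pair of groups lay apart. Il11 reached 1 FPKM in 4 libraries, all of them treated with bleomycin, so it entered the test only through the treated groups. Bleomycin against vehicle gave 0.24 ± 0.16 on the log2(FPKM + 1) scale (95% interval -0.11 to 0.58, limma, adjusted p = 0.519). ST045849 against bleomycin gave 0.10 ± 0.16 (95% interval -0.25 to 0.45, limma, adjusted p = 0.704), and this small difference changed sign when levels were scaled as TPM or when each library's trend with gene length was removed.

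Il6, the name-giving cytokine of its family, was close to the limit of what these libraries can show. It lies at chromosome 5, 30013114 to 30019981, on the plus strand. Vehicle library 1 held 0.0597 FPKM and the other vehicle libraries were listed at 0. The bleomycin libraries held 0.0717, 0.0714 and 0.0799 FPKM, and those with ST045849 held 0.0995, 0.0356 and 0.0379. Depending on the transcript length used, these values equal between 0 and 8.06 fragments per library. The bleomycin group lay above the vehicle group (two-sided exact permutation p = 0.1, the smallest that 3 against 3 libraries can give), as did 21.4% of all tested genes, and the ST045849 group overlapped both. The groups were thus separated by a few fragments.

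Il1rn, the interleukin-1 receptor antagonist, had the highest mean level of the 9 members and the widest spread. It lies at chromosome 2, 24336853 to 24351494, on the plus strand. Il1rn measured 2.85, 1.78 and 1.32 FPKM in the vehicle libraries, 8.39, 2.31 and 5.22 with bleomycin, and 8.59, 0.982 and 6.07 with ST045849. Library 2 was the lowest of both treated groups, inside the vehicle range with bleomycin and below it with ST045849. Means were 1.98 ± 0.784, 5.31 ± 3.04 and 5.21 ± 3.87 FPKM (SD, n = 3 each). Bleomycin against vehicle gave 0.99 ± 0.53 on the log2(FPKM + 1) scale (95% interval -0.19 to 2.17, limma, adjusted p = 0.394). ST045849 against bleomycin gave -0.17 ± 0.53 (limma, adjusted p = 0.85), and the sign of this difference turned when library 2 of the ST045849 group was left out (0.51).

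The agonists that Il1rn would oppose were not detected. Il1a (chromosome 2, 129299610 to 129309972, minus strand) and Il1b (chromosome 2, 129364570 to 129371139, minus strand) were listed at 0 in all 9 libraries. A count of 0 allows up to 3 fragments, here 0.0424 to 0.0486 FPKM of Il1a and 0.0617 to 0.0707 FPKM of Il1b, counting error only. Tnf, tumour necrosis factor, at chromosome 17, 35199381 to 35202007, on the minus strand, was likewise listed at 0 in every library, which allows up to 0.0572 to 0.0656 FPKM. In the same files 0 of the 1203 genes with a mean of at least 50 FPKM had any library at 0. That set was chosen for a high mean, so it cannot speak to genes listed at 0 throughout. Of the genes that process or release interleukin-1, 6 of 10 were tested and 0 were called with bleomycin, where 4.88% of all tested genes were called, so the count says little about 6 genes. Of these, 5 were higher, with a median of 0.26 against 0.10 over all tested genes. Casp1, which encodes the protease that matures interleukin-1β, did not exceed 0.12 FPKM.

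Il33 was low in each group, and no difference of it was called in every setting run. It lies at chromosome 19, 29925114 to 29960718, on the plus strand. Il33 measured 0.0969, 0.0758 and 0.0475 FPKM in the vehicle libraries, 0.271, 0.15 and 0.214 with bleomycin, and 0.19, 0.353 and 0.315 with ST045849. These values equal 0.582 to 32.2 fragments per library, depending on the transcript length used. Both treated groups lay above the vehicle group, with two-sided exact permutation p = 0.1 in each case, the smallest possible. Of all tested genes, 21.4% lay above vehicle in this way with bleomycin and 21% with bleomycin plus ST045849. With a filter and a pseudocount of 0.1 FPKM, chosen after seeing that these genes were below the filter, Il33 was 0.84 ± 0.31 log2 units higher with bleomycin (limma, adjusted p = 0.176) and 1.14 ± 0.31 higher with bleomycin plus ST045849 (limma, adjusted p = 0.0498), both against vehicle. All 3 vehicle libraries were under that lowered filter and all 6 treated libraries above it, so Il33 entered the test through the groups in which it was high. With the filter alone lowered or with no filter, the adjusted p (limma) was 0.264 and 0.206 with bleomycin and 0.0643 and 0.0628 with bleomycin plus ST045849.

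Il15, a cytokine that supports natural killer and memory T cells, lies at chromosome 8, 82331632 to 82403222, on the minus strand. It measured 0.377, 0.0301 and 0.0135 FPKM in the vehicle libraries, 0.507, 0.522 and 0.198 with bleomycin, and 0.165, 0.148 and 0.252 with ST045849. Vehicle library 1 stood well above the other vehicle libraries and inside the range of the bleomycin group. The exact permutation p for bleomycin against vehicle was 0.2 (two-sided), and no comparison of Il15 separated the groups.

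**Figure D2:**
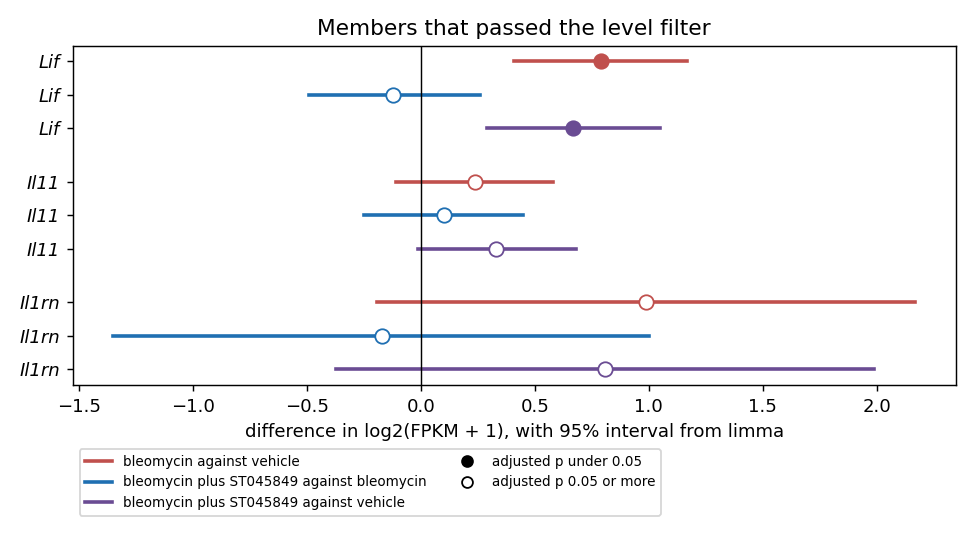
Differences between groups in log2(FPKM + 1) for the 3 members that passed the level filter, with 95% intervals from limma over 9 libraries; filled points have an adjusted p under 0.05. Lif was called against vehicle in both treated groups (0.79 and 0.67), but entered the test only through groups in which it was high. Il11 likewise entered the test only through treated libraries. Each of these 2 calls held in 4 of 9 fits that left out 1 library. The intervals of Il11 and Il1rn include 0 in each comparison.

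Il6st, Lifr, Il11ra1 and Tnfrsf1a stood above the member ligands that bind them. Per length, Il6st measured 49.2, 76.6 and 39.8 FPKM on average in the vehicle, bleomycin and ST045849 groups. Lifr measured 2.63, 4.02 and 2.25, and Il11ra1, the interleukin-11 receptor, 23.7, 36.6 and 49.2. Il6ra, the receptor chain that binds interleukin-6, was low at 1.6, 1.27 and 0.642 FPKM. With bleomycin, 0 of 10 tested genes of the receptor and JAK-STAT list were called, where 4.88% of all tested genes were called. That count says little about 10 genes, and their median difference was 0.33 against 0.10 over all tested genes. Il11ra1 was called higher in the ST045849 group against vehicle (limma, 1.04, adjusted p = 0.0455). Tnfrsf1a, the main receptor of tumour necrosis factor, averaged 62.3, 80.2 and 108 FPKM and was also called in that comparison (limma, 0.79, adjusted p = 0.0343). In ST045849 against vehicle, 9.85% of all tested genes were called, 1009 higher and 216 lower. Scaling by median of ratios gave 495 higher and 368 lower there. In a limma fit of these 2 groups with a replicate block neither was called (adjusted p of 0.119 for Il11ra1 and 0.243 for Tnfrsf1a). Neither was called with gene length removed as well (0.101 and 0.385), where the difference of Tnfrsf1a was 0.40. Equal replicate numbers of these 2 groups did not pair in the data (r of -0.519, -0.279 and 0.424), so a call lost under that block says little. Il15ra, which presents interleukin-15, averaged 3.86, 2.90 and 2.78 FPKM, with 0 calls for it in these comparisons.

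Between the 2 bleomycin-treated groups, 0 of 12441 genes were called by limma (2804 had an unadjusted p under 0.05), which is 0% of those tested, whereas the paired fit called 2403, or 19.3% (11.3% higher and 8% lower), and 4237, 216 and 294 without replicate number 1, 2 and 3. Within that paired fit the shared chain Il6st and Lifr were called lower, with adjusted p of 0.0207 and 0.0351, against 0.203 and 0.204 without pairing. Il6st measured 69.1, 70.1 and 90.5 FPKM with bleomycin and 51.6, 31.6 and 36.3 with ST045849, lower in all 3 pairs. The interleukin-33 receptor Il1rl1 measured 23.2, 11.3 and 12.4 FPKM with bleomycin and 8.15, 3.47 and 6.93 with ST045849, a difference of -1.21 on the log2(FPKM + 1) scale (limma, adjusted p = 0.203, paired 0.0115). Il1r1, the signalling interleukin-1 receptor, differed by -0.68 (limma, adjusted p = 0.254, paired 0.0408). With gene length also removed, Il1rl1 kept its paired call (adjusted p = 0.0489) and Il6st, Lifr and Il1r1 did not (0.097, 0.289 and 0.111). Il1rl1 was also called with each pair of libraries left out in turn, and Il6st, Lifr and Il1r1 in 1 of those 3 fits, the one without replicate number 1 (adjusted p without number 2 or 3 of 0.0824 to 0.222). Beside these, 9 of 10 housekeeping genes were higher with ST045849 (median 0.55 against 0.06 over all tested genes), and their part in these differences was not tested.

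**Figure D3:**
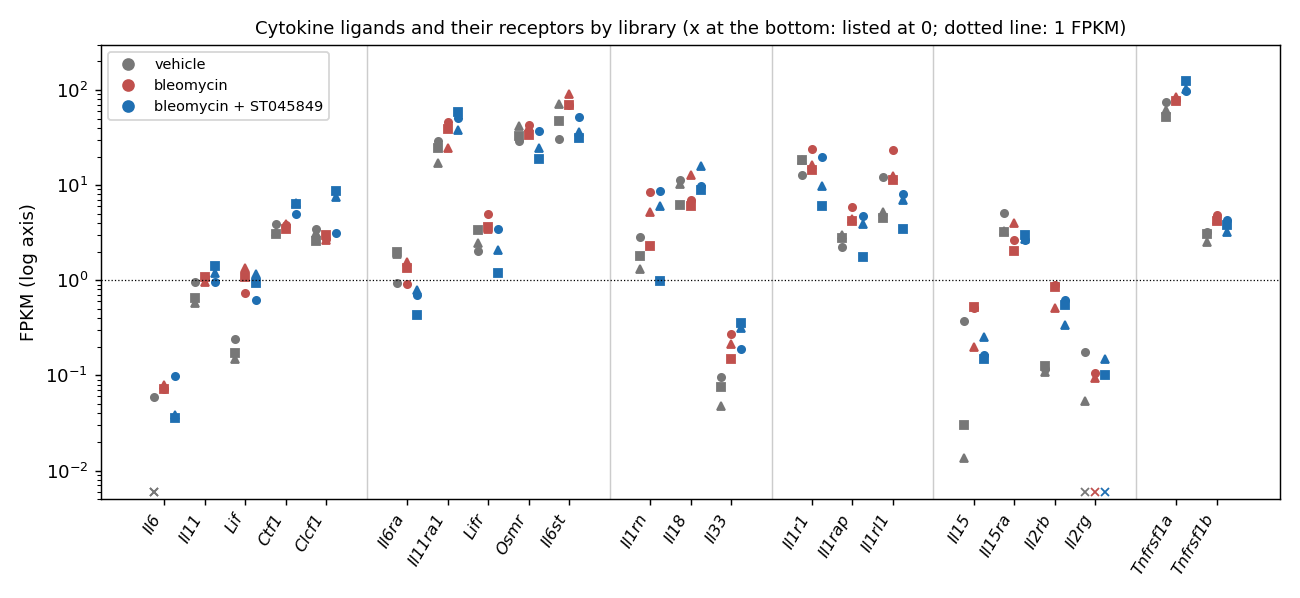
FPKM on a log axis of cytokine ligands and receptor chains in each library, coloured by group and shaped by replicate; crosses at the bottom are libraries listed at 0 and the dotted line is 1 FPKM. Il6st and Tnfrsf1a stand between 30.3 and 124 FPKM in every library, while Il6 stays under 0.1.

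Of the other ligand genes of the interleukin-6 family, 3 were tested and 0 were called with bleomycin. Over all tested genes 4.88% were called there, so that count says little about 3 genes. Clcf1, which encodes cardiotrophin-like cytokine and was chosen after its values were seen, measured 2.7, 3.01 and 2.62 FPKM with bleomycin and 3.17, 8.68 and 7.46 with ST045849 (limma, 0.89, adjusted p = 0.203, paired 0.0272), a paired call that was lost without number 2 or 3 (0.128 and 0.167) and with gene length removed (0.09). Within the ST045849 group, libraries 2 and 3 stood above library 1, which lay near the bleomycin libraries.

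**Figure D4:**
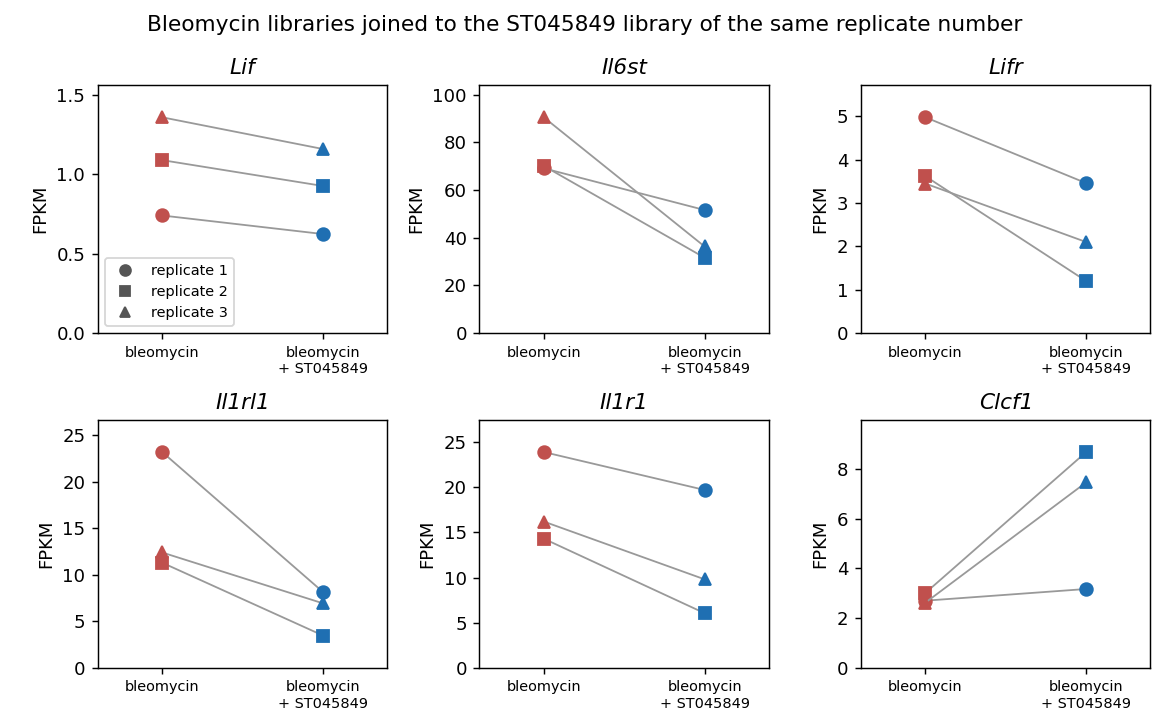
FPKM in bleomycin libraries joined by lines to the ST045849 library of the same replicate number for Lif and for receptor and ligand genes. Il6st, Lifr, Il1rl1 and Il1r1 are lower with ST045849 in all 3 pairs, Lif is lower by a near-constant ratio of 0.843 to 0.852, and Clcf1 is higher in each pair.

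Genes known to respond to these cytokines were taken from lists. Of 13 tested genes listed as STAT3 feedback and targets, 3 rose with bleomycin and 10 did not pass, where 4.2% of all tested genes rose. By sign 9 were higher and 4 lower, and the list's median was 0.15 against 0.10 over all tested genes. The 3 that rose were Saa3, an acute-phase protein (1.45, limma, adjusted p = 0.00593), Cish (0.87, adjusted p = 0.0254), and Il4ra (1.07, adjusted p = 0.0461). Cish is a feedback inhibitor of cytokine receptors that is not particular to STAT3. Socs3, the feedback inhibitor closest to gp130, was at 36.2, 27.2 and 26.1 FPKM with vehicle and 27.6, 23.4 and 20.3 with bleomycin (limma, adjusted p = 0.535). The call of Cish was lost without any 1 vehicle or bleomycin library (adjusted p of up to 0.119), that of Il4ra when a bleomycin library or vehicle library 2 or 3 was removed (up to 0.184), and Saa3 kept its call in all 9 of those fits. Of 20 tested genes that interleukin-1 and tumour necrosis factor are known to induce, 5 rose with bleomycin and 15 did not pass, with a median of 0.50 against 0.10 over all tested genes. Mmp3, a matrix-degrading protease, stood at 1.4, 0.634 and 0.417 FPKM with vehicle and 47.2, 17 and 12.2 with bleomycin (3.67, limma, adjusted p = 0.00384). Il1a, Il1b and Tnf were listed at 0 in the same libraries, and the cause of the Mmp3 rise was not tested. Ptges, the terminal enzyme of prostaglandin E2 synthesis (1.82, limma, adjusted p = 0.00384), and Tnfaip3, a brake on NF-kB (1.27, limma, adjusted p = 0.00769), rose too. Between the treated groups Saa3 and Mmp3 were called with pairing and not without it, Saa3 0.80 higher with ST045849 (limma, adjusted p = 0.203, paired 0.0269) and Mmp3 lower, at -0.66 (limma, adjusted p = 0.425, paired 0.0369). With gene length also removed, the paired adjusted p was 0.116 for Saa3 and 0.044 for Mmp3.

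Cytokines outside the 9 that rose with bleomycin were Tslp, thymic stromal lymphopoietin, and Il34, a ligand of the macrophage colony-stimulating factor receptor. Tslp measured 0.363, 0.264 and 0.33 FPKM with vehicle and 1.86, 3.28 and 1.54 with bleomycin (1.26, limma, adjusted p = 0.00611), and Il34 rose by 1.10 (limma, adjusted p = 0.0145). Leaving out library 2 or 3 of either group ended the call of Il34 (adjusted p of up to 0.0791), and Tslp kept its call in all 9 such fits. All 3 vehicle libraries of Tslp were under 1 FPKM and all 6 treated libraries above it, as for Tnfaip3, so both were tested through the groups in which they were high.

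Most of the other classic secretory cytokines were listed at 0 or at trace level. Of 12 others on that list, 4 were tested (Il18, Cxcl1, Cxcl5 and Ccl2) and 0 were called with bleomycin. Over all tested genes 4.88% were called there, so the count says little about 4 genes. Ccl2 averaged 0.581, 1.69 and 2.04 FPKM in the vehicle, bleomycin and ST045849 groups. It was called higher in ST045849 against vehicle (limma, 0.95, adjusted p = 0.0445), and the other 3 were not. In that comparison 9.85% of all tested genes were called. Il13 and Ifng were listed at 0 in all libraries, and Il7, Osm, Csf2, Csf3, Cxcl2 and Ccl20 did not exceed 0.412 FPKM in any library. Over all 6 ligand lists, 66 genes were matched, of which 15 were tested, 35 were above 0 but below the filter, and 16 were listed at 0 in all libraries.

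By pattern over the 9 libraries, the genes most like Lif were Arl4c (Pearson r = 0.995), Hbegf (0.988) and Pamr1 (0.982). Those most like Il11 were Snx11 (0.978), Id1 (0.976) and Cnfn (0.975), and those like Il1rn included Meis2 (0.974) and Glb1l (0.937). These are the highest of many correlations over libraries that share 3 groups, and are given as a description.

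The cultures were checked against cell type markers. With bleomycin against vehicle, 4.88% of all tested genes were called and 4.2% rose. The 9 chondrocyte markers were all tested and 0 were called with bleomycin, though 8 were lower (median -0.39 against 0.10 over all tested genes). With bleomycin plus ST045849 against vehicle, 9.85% of all tested genes were called, and 216 of 12441 fell. Of the 9 markers, 3 fell there (Acan, Col11a1 and Matn3, with limma differences of -1.66, -1.42 and -1.80). With a replicate block in those 2 groups, 199 of 12441 genes were called and 0 of the 9 markers. That count says little about 9 genes. The sum of the 9 markers ranged over 25800 to 35000, 19000 to 26500 and 15500 to 22500 FPKM in the vehicle, bleomycin and ST045849 groups. Of 12 macrophage markers 3 were tested and all 3 rose with bleomycin (Lyz2, Cd68 and Cd14); their list summed to 3.05 to 5.82, 11 to 12.6 and 11.9 to 18 FPKM in the 3 groups, while the defining genes C1qb, C1qc and Tyrobp were at 0 in every library. Leaving out library 2 or 3 of the vehicle or bleomycin group ended the calls of these 3 genes (adjusted p of up to 0.162), and leaving out bleomycin library 1 those of Lyz2 and Cd14. Of 8 genes listed as synovial fibroblast markers 4 rose with bleomycin, among them Prg4 (1.88, limma, adjusted p = 0.00263) and Fap (1.92, limma, adjusted p = 0.00409). Prg4 encodes lubricin and is also a gene of superficial zone chondrocytes, so it does not mark fibroblasts alone. The list summed to 2440 to 2960, 4130 to 5400 and 2400 to 4250 FPKM in the 3 groups. The part of these marker differences in the Lif results was not tested. Judged by the steps between low values, 1 fragment was worth 0.0279 to 0.032 FPKM in a transcript of 1 kb, and Lif rested on 18.5 to 171 fragments per library.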

How the data were processed

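RNA of 9 libraries of primary mouse articular chondrocytes (3 groups of 3) was used. Per the labels' protocols a stranded poly(A) mRNA kit was used. Per the submitters' processing notes, Trimmomatic trimmed the reads and STAR aligned them to GRCm38. The deposited values are FPKM per gene, made by the authors; not given in the sources used here are the counting program, its annotation and whether it used strand. Positions and exon lengths are from GENCODE vM21.

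The 12441 genes that reached 1 FPKM in 3 or more libraries were tested as log2(FPKM + 1) in 1 model over 9 libraries with limma 3.58.1 (R 4.3.3, trended variance, 6 residual and 4.95 prior degrees of freedom, Benjamini-Hochberg over all tested genes, called at an adjusted p under 0.05). Single genes below the filter had exact permutation tests. Depth was read from the steps of low FPKM values of genes with 1 transcript. The members, the 24 other gene lists and the named genes were chosen with earlier results of these data known. Named genes are, per list, up to 3 risen and 3 fallen called genes by adjusted p, otherwise the tested gene with the highest mean, and the members' receptors. Genes that this rule names but the text does not are not reported here. The calculation was tested on simulated data.

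Deviations from group means correlated between equal replicate numbers of the 2 bleomycin-treated groups (r of 0.466, 0.481 and 0.5), so that comparison is also given paired. The labels state no pairing, and vehicle numbers did not pair. Their r was -0.071, -0.026 and 0.546 with bleomycin, and -0.519, -0.279 and 0.424 with ST045849. Alternatives were other pseudocounts, filters, scalings, blocks, length removal, and leaving out each library.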

Additional observations from a re-analysis of the deposited data

How the results depend on the processing

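Genes called with bleomycin against vehicle numbered 607, and 1024 in a fit of the 2 groups alone, 1048 with gene length removed in a paired fit, and 184 to 829 when 1 library was left out. ST045849 against bleomycin called 0 genes, and 1 with no filter, 2 with quantile normalization, 2 with gene length removed, 2403 with the replicate block in the 2 groups alone and 170 with length removed as well. Without 1 library it called 0 to 2225 (2225 without ST045849 library 1), and paired without 1 replicate number, chosen after seeing the data, 4237, 216 and 294 (numbers 1, 2 and 3). ST045849 against vehicle called 1225 genes, and 651 with no filter, 710 as TPM, 621 in the 2 groups alone, 199 with the replicate block there, 782 with length removed, 239 with both, and 286 to 3060 without 1 library. A replicate block over all 9 libraries gave 733, 0 and 1386 genes for the 3 comparisons and kept the call of Lif against vehicle. The median difference of all tested genes moved from 0.10 to -0.02 with median-of-ratios scaling and to -0.03 with quantile normalization in bleomycin against vehicle.

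Lif against vehicle kept its sign in all 23 fits with bleomycin (0.55 to 2.00) and its call in 10 of 14 alternatives and 4 of 9 fits that left out a library; adjusted p was 0.0529 with no filter, 0.0504 with length removed and 0.0604 with length removed and paired. Il11 changed sign in ST045849 against bleomycin as TPM (-0.0762), with length removed (-0.2429, paired or not) and against vehicle with length removed (-0.119, paired or not). Il1rn changed sign in ST045849 against bleomycin without bleomycin library 1 (0.1755), without ST045849 library 2 (0.51) and paired without number 2 (0.1071), with -0.6271 to 0.51 over the fits that left out 1 library. The cause was not tested. Depth limits Il6 most, at 0 to 8.06 fragments per library among the members with any.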
